A study of Mus musculus with 2 samples.

Results

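T cells of the liver that held no transcript of the chemokine gene Ccl5 were examined in single-cell RNA sequencing of the library labelled E18.5. Quality limits on a barcode, the tag of 1 droplet and usually of 1 cell, were 200 detected genes, 500 UMIs (unique molecular identifiers, each counting 1 captured mRNA molecule) and less than 25% mitochondrial UMIs. A barcode was taken as a T cell when Cd3d, Cd3e, Cd3g and Trac together gave at least 2 UMIs, and it was left out with any UMI of Ccl5, of the natural killer cell genes Ncr1 and Klre1 or of the B cell gene Cd79a, or with 5 or more UMIs of the macrophage genes C1qa, C1qb and C1qc. The members were thus chosen by UMI counts of this same library. These conditions held for 190 barcodes, called members here, of 4721 past the quality filters (4.03%, exact binomial 95% interval 3.48 to 4.63%), of 9871 in the library and of 19642 in the series. Both libraries are liver from host blastocysts with a knockout of the homeobox gene Hhex that had been injected with tdTomato-positive tetraploid (4N) embryonic stem cells. One is labelled E18.5 (embryonic) and one p180 (postnatal), with 1 library per label. No untreated, diploid or Hhex-carrying liver is analysed here, the feature table holds 0 tdTomato features, and members of donor and of host origin cannot be told apart. Hhex itself gave 13 UMIs in 10 members (5.26%) and was seen in 27.4% of barcodes with B cell genes, and where the deletion lies relative to the counted 3′ reads is not given in the labels.

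T cells read antigen through a receptor whose alpha and beta chains (Trac, Trbc1, Trbc2), or gamma and delta chains, signal through the CD3 proteins. Naive T cells leave the thymus, recirculate through blood and lymph nodes under Ccr7 and S1pr1, and keep the transcription factors Lef1 and Tcf7. After antigen contact they become effector or memory cells. Ccl5 is a chemokine stored by cytotoxic and memory T cells, so T cells without it include naive cells, helper cells and gamma delta cells, and the liver holds resident T cells as well as those passing through its blood.

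The composition of the libraries ran against their stage labels. In the library labelled E18.5, Mki67, a gene of dividing cells, was seen in 5.06% of 4721 barcodes, haemoglobin genes gave at least 100 UMIs in 3.18%, and the B cell genes Cd79a, Cd79b and Ms4a1 gave at least 2 UMIs in 31.5%. In the library labelled p180 the same shares were 59.8%, 81.7% and 3.51% of 9582 barcodes. Trac was seen in 8.75% of barcodes of the first library and in 0.136% of the second. The libraries are therefore named by their labels only, and no change with age is drawn from them. The 2 libraries shared 28 barcode sequences, 0 of them among the members.

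The members held 892 to 20853 UMIs each (median 5483) and a median of 2016.5 genes, and 8.31% of UMIs (median) were mitochondrial. T cells that met the same conditions but had at least 1 Ccl5 UMI numbered 185, with a median of 5821 UMIs, and are used for comparison. Further comparison groups were 135 barcodes with Ncr1 or Klre1 (median 5772 UMIs) and 1396 barcodes with B cell genes (median 4902 UMIs), which give the background of T cell transcripts in other cells. Levels are given as CPM, a group's summed UMIs of 1 gene scaled to a common total, with exact Poisson 95% intervals. Each group comes from 1 library, so nothing was tested between samples, and all intervals and limits cover counting error only. Since the members were chosen by genes of the same cells, the contrasts below are descriptions.

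Most members held T cell markers that the rule did not use. Of the 3 markers Lef1, Bcl11b (a factor that fixes the T cell fate) and Cd28 (the costimulatory receptor), at least 2 were seen in 148 of 190 members (77.9%), in 143 of 185 T cells with Ccl5 (77.3%) and in 21 of 135 barcodes with Ncr1 or Klre1 (15.6%). The barcodes with B cell genes, of which 4 of 1396 held at least 2 (0.287%), had been taken with 0 UMIs of Cd3d, Cd3e, Cd3g and Trac, so that their T cell background is low by choice. Those with Ncr1 or Klre1 had been taken with fewer than 2 UMIs of the same 4 genes, so their share is also lowered by choice. With Cd3e, which the rule used, added to the 3 markers, 174 of 190 members held at least 2. Bcl11b stood at 591 CPM (95% interval 546 to 638) and was seen in 87.9% of members, and Cd28 at 519 CPM (477 to 563) in 68.9%. Lef1 was seen in 100 members (52.6%). The adaptor Skap1 reached 1617 CPM in 91.6% of members, where barcodes with B cell genes showed it in 2.29%. Its level was 1391 CPM in T cells with Ccl5 and 634.8 CPM in barcodes with Ncr1 or Klre1, so it was not limited to T cells. The rule itself used Cd3d (446 CPM), Cd3e (350.0 CPM), Cd3g (579.6 CPM) and Trac (337 CPM), whose UMIs per member ran from 2 to 61 with a median of 8.

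At the edge of the rule the label was weaker. Of the 16 members with exactly 2 UMIs of these 4 genes, Bcl11b was seen in 8 and S100a8, a neutrophil gene, in 6. Of the 59 barcodes with 1 such UMI, just outside, it was 10 and 35. On the Ccl5 side, 15 of the 25 T cells with exactly 1 Ccl5 UMI, just outside, held Nkg7, a granule gene of killer cells, and 18 held Lef1, against 51 and 100 of the 190 members.

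A group of 9 members carried neutrophil transcripts. The calprotectin genes S100a8 and S100a9 together gave 46 to 2865 UMIs in these 9 and at most 3 UMIs in each of the other 181. In 7 of the 9 the whole T cell call rested on 2 or 3 UMIs of Cd3d, with 0 UMIs of Cd3e, Cd3g, Trac, Bcl11b, Cd28, Lef1 and Skap1. The other 2 of the 9 held all 4 markers (Cd3e included), and in them S100a8 and S100a9 gave 46 and 183 UMIs. The 9 members held 99.0% of the members' UMIs of Camp (the granule peptide cathelicidin), 99.5% of those of Ngp and 98.8% of those of Lcn2, both neutrophil granule genes. Of the members' 520 Camp UMIs, 412 lay in 1 barcode, which also held 299 of the 438 Ngp UMIs. These genes therefore describe some of the 9 barcodes and not the T cells as a whole. Camp and Ngp together gave 0 or 1 UMI in 4 of the 7 members called on Cd3d alone.

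**Figure D1:**
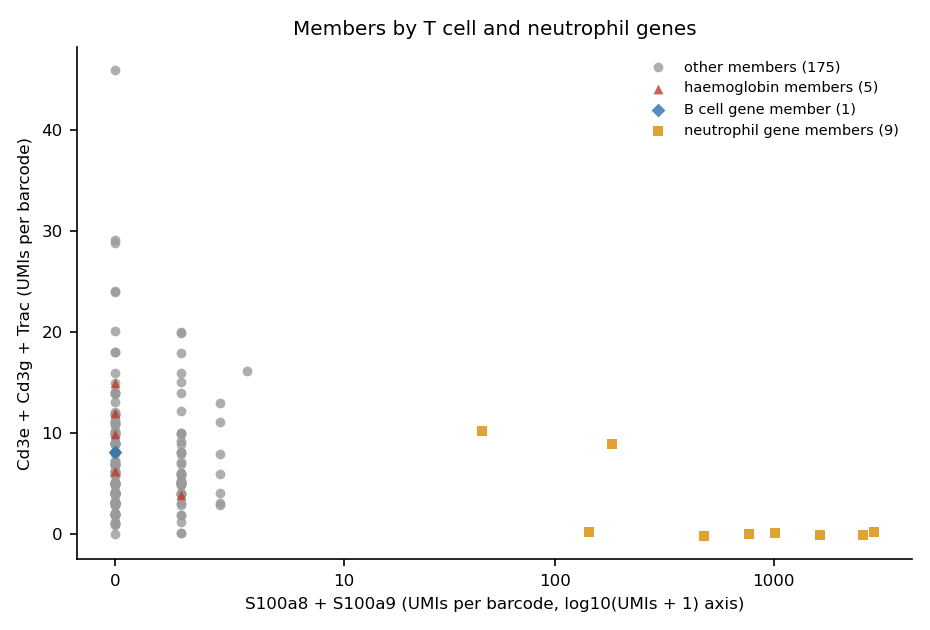
Each point is 1 of the 190 members, with UMIs of S100a8 plus S100a9 (horizontal, log10(UMIs + 1) axis) against UMIs of Cd3e, Cd3g and Trac (vertical, with small random offsets of the points); colour and shape give the group. The 9 neutrophil gene members lie at 46 UMIs and above on the horizontal axis, and 7 of them are at 0 on the vertical axis.

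Cd3d was found in barcodes with neutrophil genes of both libraries. Among barcodes with at least 10 UMIs of Camp and Ngp, genes of late neutrophil precursors, Cd3d was seen in 9 of 20 with the E18.5 label (45.0%, 23.1 to 68.5%) at 51.6 CPM (26.7 to 90.2). With the p180 label it was seen in 649 of 1108 (58.6%, 55.6 to 61.5%) at 65.6 CPM (62.4 to 68.9). In those 1108 barcodes Cd3e had 0 UMIs, which allows a share of up to 0.271% (3 barcodes), and Trac was seen in 0.181% and Cd3g in 5.24%. The other 8474 barcodes of the library labelled p180 showed Cd3d in 0.614%, at 1.68 CPM. The 1108 barcodes were deeper (median 18077.5 UMIs against 5503), and Cd3d gave 1556 UMIs in them. A further class was 376 barcodes with the E18.5 label that had at least 10 UMIs of S100a8 and S100a9 and 0 of Camp and Ngp. It showed Cd3d in 26 (6.91%, 4.57 to 9.97%) at 33.2 CPM (24.0 to 44.7), and also Cd3e in 2.39% and Cd3g in 2.13%. The median depth of this class was 2884 UMIs, against 8640.5 in the 20 barcodes with the E18.5 label above. The intervals of the Cd3d level in CPM overlap between these 2 classes.

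The rule therefore picked other cells in the library labelled p180. There it kept 410 barcodes, of which 407 held 0 of Cd3e, Lef1, Bcl11b and Cd28. Of the genes that the rule counts, Cd3d was seen in 99.5% of the 410, Cd3g in 11.5% and Trac in 0. Camp was seen in 99.0% and Mki67 in 51.7%. Only 4 barcodes of that library met the conditions with Ccl5. No comparison of T cells between the libraries is made for this reason.

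Cd3d lies on chromosome 9 (mm10, 44981786 to 44987339, plus strand) next to Cd3g (44969572 to 44980431, minus strand), and the starts of the 2 genes are 1355 bases apart on opposite strands. Cd3e (44998740 to 45009627, minus strand) lies downstream and is overlapped by the gene model Gm48719. The 250 bases before each start are shown, from RefSeq on GRCm38.p6, for Cd3d (chr9:44981536-44981785, plus strand), for its neighbour Cd3g (chr9:44980432-44980681, minus strand) and for the neutrophil genes Camp (chr9:109849457-109849706, minus strand) and Ngp (chr9:110419558-110419807, plus strand), because Cd3d was found beside Camp and Ngp transcripts with few or no UMIs of Cd3e and Trac. Capitals mark a match on either strand to TTGCNNAA (a C/EBP core, the family of myeloid factors), to the ETS cores CCGGAA or AGGAAG, or to TGTGGT (a RUNX core).
Cd3d: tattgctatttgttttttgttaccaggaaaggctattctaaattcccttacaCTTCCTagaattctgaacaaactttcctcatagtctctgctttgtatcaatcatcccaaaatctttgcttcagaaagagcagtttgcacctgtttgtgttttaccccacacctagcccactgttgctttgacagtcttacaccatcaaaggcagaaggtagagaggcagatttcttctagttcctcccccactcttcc
Cd3g: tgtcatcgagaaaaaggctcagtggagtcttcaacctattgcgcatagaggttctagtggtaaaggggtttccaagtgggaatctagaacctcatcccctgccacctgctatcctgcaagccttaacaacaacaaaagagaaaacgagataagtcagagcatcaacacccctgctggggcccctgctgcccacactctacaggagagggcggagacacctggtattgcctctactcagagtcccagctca
Camp: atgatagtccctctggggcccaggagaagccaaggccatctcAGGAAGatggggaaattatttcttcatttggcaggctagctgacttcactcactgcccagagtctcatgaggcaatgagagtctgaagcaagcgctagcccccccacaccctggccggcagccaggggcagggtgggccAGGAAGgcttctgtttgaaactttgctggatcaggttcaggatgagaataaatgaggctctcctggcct
Ngp: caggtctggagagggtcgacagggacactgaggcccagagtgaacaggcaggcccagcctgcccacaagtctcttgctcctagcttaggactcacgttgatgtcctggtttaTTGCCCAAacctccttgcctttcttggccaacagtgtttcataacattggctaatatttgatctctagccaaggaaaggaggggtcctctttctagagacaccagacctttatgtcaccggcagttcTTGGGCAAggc
The core TTGCNNAA was found in the Ngp window only, with 2 matches, and in 9.56% of 32851 promoter windows of this length. CCGGAA (3952 of the windows) and TGTGGT (14.0%) matched none of the 4. The second ETS core, AGGAAG, was added after CCGGAA had given no match and these sequences had been read. It matched once in the Cd3d window and in 2 places in the Camp window, but also in 2 places in the window before Cd3e, which is not printed, and 29.5% of all windows hold it. A match is a description of letters and not a binding site.

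Other lineages touched 6 further members. Haemoglobin genes gave 804 to 2737 UMIs in 5 members and at most 14 in every other member, and B cell genes gave 46 UMIs in 1 member and at most 2 in the others. Of the 12 lists of other cell types, natural killer and innate lymphoid cell genes summed to 239 CPM with Klra4, Klra7, Klra8 and Klra9 at 0 UMIs, monocyte and macrophage genes to 272 CPM with Clec4f, Cd5l and Marco at 0, and mesenchymal genes to 1 UMI. Over the 175 members without these lineages the first 2 sums were 36.1 and 32.1 CPM. Neutrophil genes (9746 CPM) and erythroid genes (9723 CPM) were the highest of the 12 sums in members, were 65.1 and 530 CPM over the 175, and were 1107 and 2732 CPM in T cells with Ccl5. Values over the 175 members are also given below for genes named in the contrast with T cells with Ccl5 whose call differs.

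Coreceptor genes split the members mostly into Cd4-bearing cells and cells with neither. Cd4, the helper cell coreceptor, was seen without Cd8a or Cd8b1 in 77 members (40.5%, 33.5 to 47.9%). Cd8a or Cd8b1, the coreceptor of killer cells, was seen without Cd4 in 14 (7.37%, 4.09 to 12.1%), both were seen in 1, and neither in 98 (51.6%, 44.2 to 58.9%). Among T cells with Ccl5 the order of Cd4 and Cd8 was the opposite, with 51 Cd4-only (27.6%) and 71 Cd8-only cells (38.4%) of 185. The level of Cd8b1 was 24.6 CPM (16.2 to 35.8) in members and 145 CPM in T cells with Ccl5, and that of Cd4 was 149.5 CPM (128 to 174) and 75.8 CPM (log2 ratio 0.98, and 1.11 over the 175 members). Both coreceptors are sparse transcripts, and after every cell was thinned to 1000 UMIs, which left out 1 member, 18 of 189 members were Cd4-only, 8 were Cd8-only and 163 showed neither. The large class with neither therefore moves with depth and is no measure of double-negative cells.

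Beta chain transcripts, which the rule did not use, were seen in most members. Trbc1 or Trbc2 was seen in all but 24, and Trac, whose UMIs helped to choose the members, in 130 (68.4%). Of the 135 barcodes with Ncr1 or Klre1, all but 68 also held Trbc1 or Trbc2, so these transcripts were not particular to the T cell groups. Trbc2 stood at 570.5 CPM and Trbc1 at 323 CPM, though these near-identical copies can share reads and their split is uncertain. Variable gene segments were too sparse to describe a repertoire, with 28 UMIs from 13 Trav genes and 17 UMIs from 11 Trbv genes. Trdc, the constant delta chain, was seen in 17 members (8.95%, 5.30 to 13.9%), of which 12 showed no Trac, and in 0.0716% of barcodes with B cell genes. The share was 6.49% in T cells with Ccl5 and 11.1% in barcodes with Ncr1 or Klre1, so Trdc was not particular to the members. A gamma constant gene (Tcrg-C1, Tcrg-C2 or Tcrg-C4, also alike in sequence) was seen in 36 members (18.9%), 14 of them with Trdc. T cells with Ccl5 showed one in 31.35% and barcodes with Ncr1 or Klre1 in 11.85%.

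Genes of recombining thymocytes were not detected. Rag1, Rag2, Dntt and Arpp21 had 0 UMIs in the 190 members, which allows a level of up to 2.73 CPM and up to 1.58% of cells with a UMI (3 counts of each total), and Ptcra, the pre-T cell receptor chain, had 1 UMI. Few members held several division genes at once. Of 9 cell division genes, at least 5 were seen in 3 of 190 members (1.58%) and in 9 of 185 T cells with Ccl5 (4.86%), and these intervals overlap (0.327 to 4.55% and 2.25 to 9.03%). None of the 9 genes was seen in 158 of the members and in 152 of the T cells with Ccl5. One member held 43 of the 79 Mki67 UMIs. Xist, transcribed from the inactive X chromosome, was seen in 166 of 190 members, and 2 members with a Y-linked UMI both also held Xist.

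Against T cells with Ccl5, the members were higher in some genes of the naive and Treg lists and lower in most genes of killer cells. Genes with at least 50 UMIs in either group were compared, and a gene was called at a 2-fold difference. Of 4388 genes, 138 were at least 2-fold higher in members (3.14%) and 129 at least 2-fold lower (2.94%), with a median log2 ratio of -0.06, so that 6.08% were called in either direction. Over the 175 members without other lineages, 114 (2.63%) were higher and 142 (3.27%) lower of 4340. Only the members were filtered in this way, and T cells with Ccl5 kept their barcodes with neutrophil or haemoglobin transcripts. Values over the 175 members are therefore lowered for genes of these lineages. The myeloid gene Lyz2 went from a log2 ratio of -0.03 to -3.37. The shares for single lists below are read beside these shares of all genes.

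**Figure D2:**
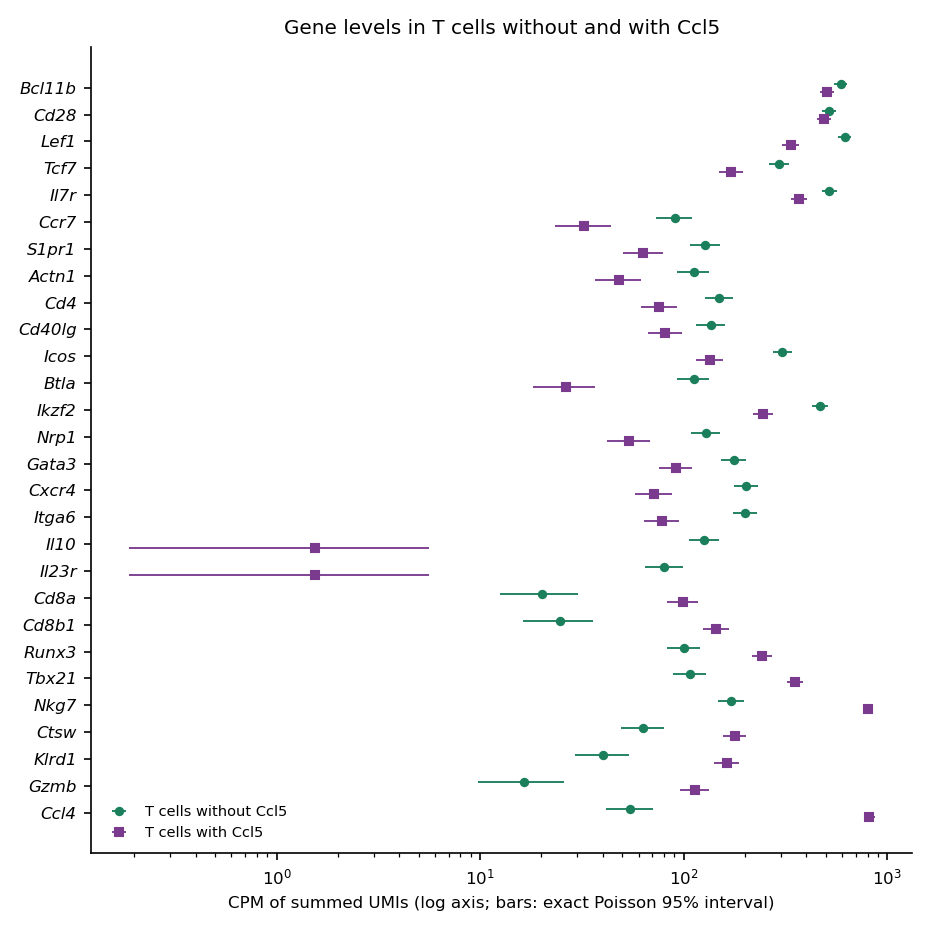
Level of 28 genes in the 190 T cells without Ccl5 (circles) and the 185 with Ccl5 (squares), in CPM of summed UMIs on a log axis with exact Poisson 95% intervals. Genes from Lef1 to Il23r lie to the right in the cells without Ccl5, and genes from Cd8a to Ccl4 lie to the left.

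Killer cell genes were lower in members. Of the 20 measured genes of the cytotoxic effector list, 14 showed a 2-fold lower level and 0 a higher one (15 and 0 over the 175 members), and the median log2 ratio was -1.72. Nkg7 was at 171 CPM (148 to 198) in members and 804.5 CPM in T cells with Ccl5, a log2 ratio of -2.23 (-2.46 to -2.01). Ccl4, a chemokine gene of activated killer cells, was at 54.7 and 817 CPM (-3.90). Granzyme genes, whose proteins enter target cells, gave few UMIs: Gzma had 2 UMIs in members against 241 CPM in T cells with Ccl5 (-7.04, -10.10 to -5.18), and Gzmb stood at 16.4 and 114 CPM. The receptor gene Klrd1 (40.1 and 162 CPM), the protease gene Ctsw (62.9 and 179 CPM) and Tbx21, the type 1 master regulator (107.5 and 352.7 CPM), were lower as well. Ifng, the type 1 cytokine, was less apart, at 282 and 481 CPM (-0.77), and Cxcr6, a receptor of liver-resident T cells, was at 175.0 and 206.5 CPM (-0.24, -0.51 to 0.03). All 6 measured genes of the CD8 lineage list were at least 2-fold lower (median -1.87), 3 of which are also on the effector list, and Runx3, the factor that sets the CD8 fate, was at 100.2 and 242 CPM.

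Naive genes were higher by smaller amounts. Of 14 measured genes of the naive and recirculation list, 3 passed 2-fold upward (Ccr7, S1pr1 and Actn1) and 0 downward, with a median of 0.51. Ccr7, the lymph node homing receptor, stood at 90.2 CPM (73.3 to 110) and 32.5 CPM (log2 ratio 1.47, 0.94 to 2.03). S1pr1, which guides exit from lymph nodes, stood at 128 and 63.4 CPM (1.01), and Actn1 at 112 and 48.0 CPM (1.22). Lef1 was at 619 and 335 CPM (0.89) and Tcf7 at 294 and 171 CPM (0.78), both below 2-fold. The quiescence factor Klf2 did not separate the groups, at 889.5 and 892.7 CPM (-0.01, -0.13 to 0.12). Actn1 was also seen in 7 of the 9 neutrophil gene members. Over the 175 members without other lineages it was at 108 CPM, and the list kept 3 genes higher and 0 lower.

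Memory genes showed no common direction. Of 15 genes of the memory and activation list, 1 was at least 2-fold higher, 1 lower, and the median was 0.33. S100a6 was at 2091 CPM in members and 1626 CPM in T cells with Ccl5 (0.36), but the 9 neutrophil gene members held 464 of its 2294 UMIs and over the 175 members it was at 1746 CPM (0.10). S100a4 was at 1088 and 820.0 CPM (0.41) and Lgals1 at 764 and 934 CPM (-0.29). Ly6c2, a marker of effector and central memory cells, was lower (79.3 and 331 CPM, -2.06). Anxa1 was higher (90.2 and 30.2 CPM, 1.58), with 33 of its 99 UMIs in 1 member, and over the 175 members it had fewer UMIs than the limit. The list then had 0 genes higher and a median of 0.07.

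Some regulatory and costimulatory genes were higher. Of 10 measured genes of the Treg list, 3 passed 2-fold upward (Nrp1, Capg and Il10, described below) and 0 downward (median 0.88), and over the 175 members 5 did. Nrp1 stood at 128.5 and 54.1 CPM (1.25, 0.82 to 1.68), Capg at 117 and 53.4 CPM, and Ikzf2, which encodes Helios, at 467.5 and 245 CPM (0.93, and 1.05 over the 175 members). Of 14 measured genes of the costimulation and checkpoint list, 2 passed 2-fold upward (Icos and Btla) and 1 downward, with a median of -0.17. Icos, a costimulatory receptor of helper cells, was at 305 and 135 CPM (1.18), Btla, an inhibitory receptor, at 112 and 26.3 CPM (2.09), and Cd40lg, the helper signal to B cells, at 136 and 81.2 CPM (0.74). Of 5 measured genes of the CD4 lineage list 0 were called (median 0.74), and over the 175 members 2 were higher. Gata3, the type 2 and thymic regulator, was at 176 and 91.3 CPM (0.95, and 1.06 over the 175 members). Cd160, a killer cell receptor, was the gene of the costimulation list at least 2-fold lower, with 3 UMIs in members and 42.5 CPM in T cells with Ccl5.

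Receptor signalling genes did not pass 2-fold. Of 15 measured genes of the T cell receptor list that the rule did not use, 0 were at least 2-fold apart (median 0.09): Cd247 was at 449 and 374 CPM, Lck at 231.5 and 276 CPM, and Zap70 at 101.2 and 86.6 CPM. None of 16 immediate early genes was called either (median 0.17), with Fos at 1327 and 1007 CPM. These genes respond to tissue dissociation as well as to stimulation, and their part in the results was not tested. None of 9 measured survival genes and none of 6 measured p53 genes was at least 2-fold apart.

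Some homing receptors were higher in members. Of 16 measured, 4 passed 2-fold upward (Ccr7, S1pr1, Cxcr4 and Itga6) and 1 downward. Cxcr4, the receptor for the marrow and liver chemokine Cxcl12, stood at 203 and 71.2 CPM (1.51, 1.16 to 1.88), and the integrin gene Itga6 at 200.5 and 78.1 CPM (1.36). Ccr2, an inflammatory receptor, was at 113 and 116 CPM. Among cytokine receptors, Il6ra was higher (104 and 39.4 CPM, 1.40) and Il12rb2, the receptor for the type 1 signal, lower (63.8 and 131.5 CPM, -1.04, and -0.91 over the 175 members).

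**Figure D3:**
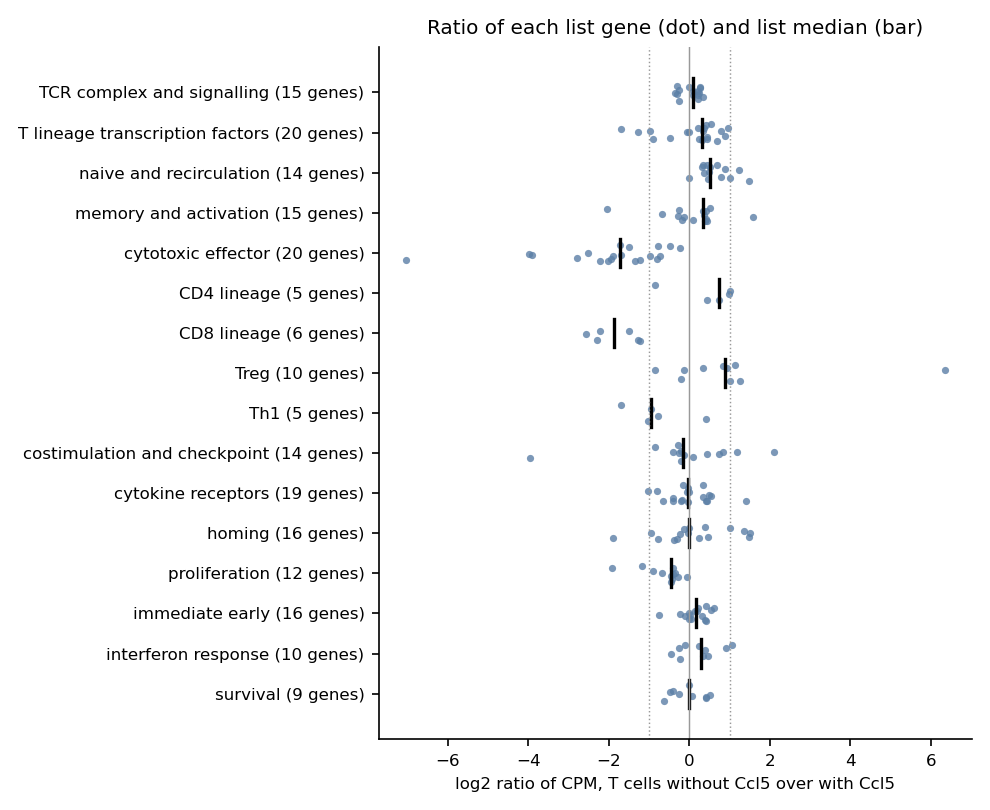
Log2 ratio of CPM of T cells without Ccl5 over T cells with Ccl5 for each measured gene (dot) of 16 lists, with the list median as a bar and dotted lines at 2-fold. The cytotoxic effector and CD8 lineage lists lie left, with medians of -1.72 and -1.87, and the receptor signalling list stays between the dotted lines.

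Genes outside the lists were named by size, as the 10 highest and 10 lowest with at least 200 UMIs over both groups. Camp, Ngp and Lcn2 headed them and came from the neutrophil gene members. Below them were Plcb4, a phospholipase gene (160.4 and 22.4 CPM, 2.84), the growth factor receptor gene Igf1r (200.5 and 42.5 CPM, 2.24), the sialyltransferase gene St6gal1 (225 and 65.7 CPM, 1.78), Nebl, Tmem64, Fry and Adk (1.64 to 1.76). Igf1r was seen in 71 members and 16 T cells with Ccl5, and the 22 type 17 gene members described below held 93 of the 176 Plcb4 UMIs and 75 of the 220 Igf1r UMIs. The 1 highest barcode among T cells with Ccl5 held 15 of its group's 29 Plcb4 UMIs, and with likely doublets left out the log2 ratios of Plcb4 and Igf1r were 4.03 and 3.45. The lowest were Itga1, the collagen-binding integrin of resident killer cells (25.5 and 151 CPM, -2.56), and Plac8 (35.5 and 155 CPM, -2.12), followed by Chsy1, Gimap7, Npm3, Pclaf, Airn, Abcb1a, Atp8a2 and Cycs (-1.42 to -1.16).

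Within the members, naive genes and genes of tissue T cells were seen mostly in different cells. The following groups were set after the values were seen and describe the 175 members without other lineages. In 62 members at least 2 of 4 naive genes were seen, Lef1, Ccr7 and S1pr1 among them, in 22 at least 2 genes of the type 17 list (which holds Il17a, Il17f, Il23r, Ccr6, Il22 and Il17re), in 13 at least 2 of Il4, Il5, Il13, Ccr4 and Il1rl1, and 78 remained. Naive gene members exclude those in the type 17 and type 2 groups. The groups are called naive gene, type 17 gene, type 2 gene and remaining members, and their median UMIs were 5720.5, 5772.5, 6561 and 4515.5.

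Pairs of single genes showed this split to differing degrees. S100a4 was seen in 31 of 93 members with Lef1 and in 64 of 82 without it. S100a6 was seen in 9 of 43 members with Ccr7 and in 112 of 132 without, and Cxcr6 in 2 of 43 and 62 of 132. With S1pr1 the separation was smaller, as Cxcr6 was seen in 17 of 66 members with it and in 47 of 109 without. After thinning to 1000 UMIs, S100a4 was seen in 10 of 55 members with Lef1 and in 63 of 119 without. Zbtb16, the factor of innate-like T cells, was seen in 31 members, of which 26 held Cxcr6 and 1 held Ccr7.

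The naive gene members were low in effector and memory genes. Of 1586 genes with at least 50 UMIs in either group, 82 were higher by 2-fold or more than in the remaining members (5.17%) and 112 lower (7.06%). All 6 measured effector genes were lower (median -2.43) and 4 of 11 memory genes. Ifng stood at 62.4 CPM in naive gene members and 619 CPM in remaining members (log2 ratio -3.31), Cxcr6 at 21.7 and 204 CPM (-3.23), Id2, a regulator of effector cells, at 128 and 482 CPM (-1.92), and S100a6 at 478 and 1733 CPM (-1.86). Bach2, a factor that holds back effector genes and is also on the naive list, stood at 1208 and 265 CPM (2.19). Dapl1, a gene of naive CD8 cells, was seen in 17 of 62 naive gene members and in 0 of the 113 type 17, type 2 and remaining members. Zbtb16 and the gamma constant genes were seen in 0 of 62, which allows up to 4.84% (3 cells). Outside the lists, Scml4 (556 and 119 CPM), the phosphatase gene Dusp10 (535 and 132 CPM) and Adk, adenosine kinase (597 and 164 CPM), were the highest, and Kcnq5 (166 and 712 CPM) and St6galnac3 (185 and 770.1 CPM) the lowest. The share of UMIs from ribosomal protein genes was 22.1% (median) in naive gene members and 13.4% in remaining members.

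Gamma delta receptor genes were seen in most type 17 gene members, as were beta chain transcripts, and the group was high in memory genes. Of 2960 genes compared with the other 153 members, 142 were called higher (4.80%) and 336 lower (11.4%). A gamma constant gene was seen in 16 of 22 (72.7%, 49.8 to 89.3%), Trdc in 10 (45.5%, 24.4 to 67.8%) and Trac in 12. Trdc without Trac was seen in 7, and Trbc1 or Trbc2 in all but 1 of the 22, so the group is not called gamma delta cells. Blk, a kinase of B cells and of gamma delta cells making interleukin 17, was seen in 11 of 22, and Sox13, a factor of that lineage, in 6, each of which also held Trdc. In naive gene members Blk, Sox13 and Il23r were seen in 0 of 62, though Il23r is among the genes that set the groups. Maf, a regulator of the same programme, was at 847 CPM against 347 CPM in the other members (1.29, 0.97 to 1.59), Il18r1 at 867 and 249 CPM (1.80), and Cxcr6 at 528 and 125 CPM (2.08). S100a4 (2750 and 904 CPM) and Lgals1 (2052 and 596 CPM) were among the 10 of 14 memory genes that were higher, and 8 of 14 naive genes were lower, with Lef1 at 47.4 and 736 CPM. Tcf7 was not among them (250.6 and 322 CPM, -0.36, -0.90 to 0.14). Outside the lists, March3 (867 and 182 CPM), St6galnac3 (2106 and 497 CPM), Lgals3 (582.5 and 159 CPM) and Runx2 (535 and 166 CPM) were among the 10 highest, and Sidt1 had 0 UMIs against 303 CPM (log2 ratio at most -3.90 with 3 UMIs in place of 0).

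**Figure D4:**
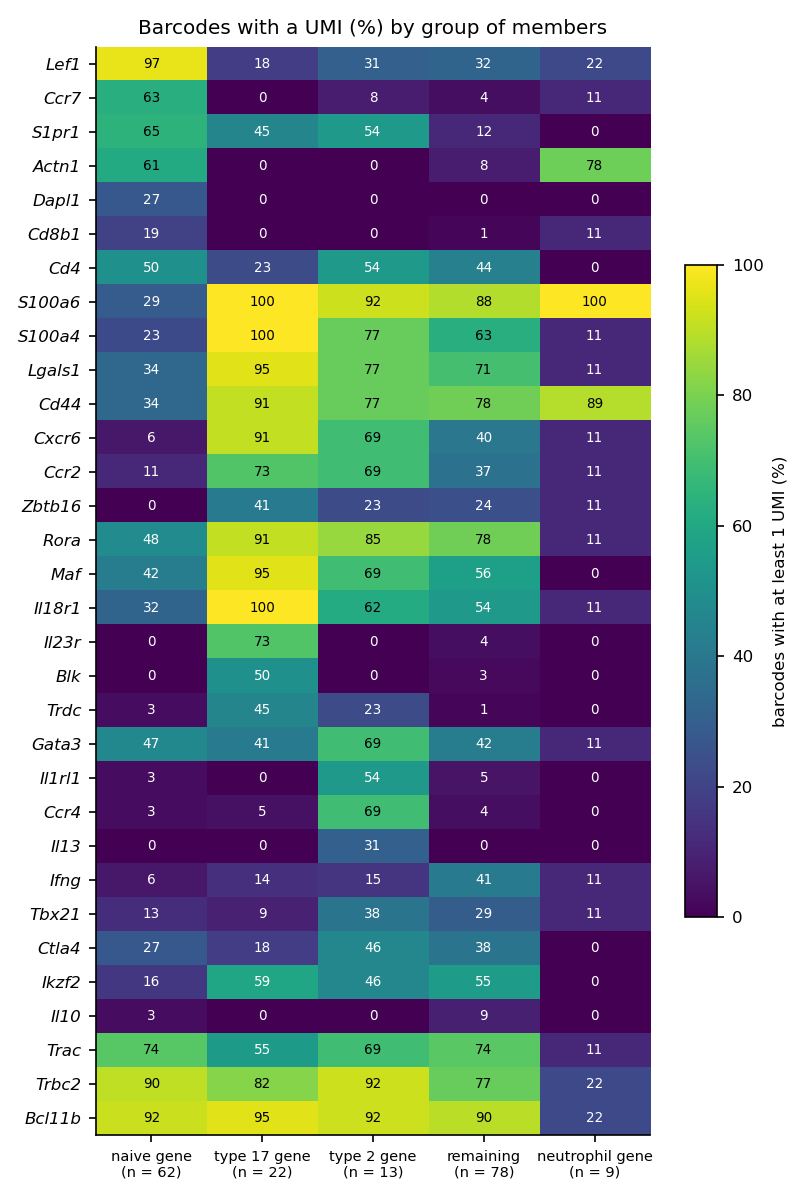
Percent of barcodes with at least 1 UMI of 32 genes (rows) in 5 groups of members (columns, with their number of barcodes); the number in each cell is the percent. Il23r, Blk and Trdc are highest in the type 17 gene column, and Bcl11b lies between 89.7 and 95.5% in the first 4 columns and at 22.2% in the neutrophil gene column. The naive genes, the type 17 list and the type 2 genes chose the columns.

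Interleukin genes came from few cells. Il17a was seen in 6 members (15 UMIs), all of them type 17 gene members, a group that Il17a helped to set. Il5 gave 33 UMIs in 2 members, 32 of them in 1, and Il13 gave 20 UMIs in 4 members, 16 of them in 1, with 0 UMIs of either in T cells with Ccl5. Il1rl1, the receptor for interleukin 33, was seen in 13 members and in 1 T cell with Ccl5. Gata3 was seen in 11 of these 13 members, and in 69 of the 162 members without Il1rl1 or other lineages. In the 13 type 2 gene members Trdc or a gamma constant gene was seen in 7 and Trac in 9. Ifng was spread more widely, with 309 UMIs in 42 members, 44.7% of them in the top 5. Of the 41 Ifng members without other lineages, 20 also held Tbx21, against 18 of the 134 without Ifng.

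Il10, the gene of an inhibitory cytokine, gave 138 UMIs in 10 members and 2 UMIs in 2 T cells with Ccl5 (126 and 1.55 CPM, log2 ratio 6.35, 4.46 to 9.41). The top 5 members held 94.2% of these UMIs. Of the 9 Il10 members without other lineages, 8 held Ctla4, an inhibitory receptor, all 9 held Trac and Cd28, and 2 held Foxp3. Of the 166 members without Il10 or other lineages, 49 held Ctla4, 116 Trac, 116 Cd28 and 4 Foxp3. Icos was seen in 9 of the 10 Il10 members and Tnfrsf4 in 6. Over all members Icos stood at 305 CPM and Tnfrsf4 at 44.7 CPM. Their shares in members without Il10 are not given, so neither is called particular to the Il10 members. The same holds for Icos in the Foxp3 members below. Foxp3, the factor of regulatory T cells, was seen in 6 members (3.16%, 1.17 to 6.75%) with 10 UMIs, at 9.11 CPM against 10.1 CPM in T cells with Ccl5. Of these 6, 5 held Ctla4, 5 held Ikzf2, all 6 held Icos and 4 were Cd4-only. Of the 169 members without Foxp3 or other lineages, 52 held Ctla4 and 67 held Ikzf2. Ikzf2 was far more widespread than Foxp3, in 76 members, and was seen in 13 of the 22 type 17 gene members.

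Cd8-only members were low in memory genes beside Cd4-only members. The contrast rests on 14 and 77 cells. The rule kept only cells without Ccl5, a gene of cytotoxic and memory T cells. It had left out 71 Cd8-only and 51 Cd4-only T cells with Ccl5, so neither class stands for all Cd8 or Cd4 T cells. Of 1769 genes, 51 were called higher in Cd8-only members (2.88%) and 298 lower (16.8%), with a median of -0.18 for all genes. Scaling by the median of ratios shifted that median to -0.60 and gave 19 higher and 537 lower, while totals without mitochondrial and ribosomal protein genes gave 83 and 227 with a median of -0.03. Against this uneven background all 12 measured memory and activation genes were at least 2-fold lower (median -2.23), and they stayed lower by median under both scalings (-2.66 and -2.09). S100a6 gave 4 UMIs in 2 Cd8-only members, 44.1 CPM against 1450 CPM (log2 ratio -5.04, -6.92 to -3.68, and -6.87 without other lineages, where 11 memory genes were lower). Lgals1 gave 2 UMIs against 738 CPM (-5.06), Itgb1 stood at 77.2 and 638 CPM, and Cd44, the classical memory marker, at 66.2 and 402 CPM (-2.60). All 4 measured genes of the Treg list and 6 of 9 of the costimulation list were at least 2-fold lower. Ikzf2 gave 1 UMI against 702 CPM, Icos 3 UMIs against 442 CPM, and Rora, a factor of tissue T cells, stood at 88.2 and 619 CPM. Ifng had 0 UMIs in the 14 cells against 338 CPM, at least 10.2-fold lower against the 3 UMIs that a count of 0 allows.

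**Figure D5:**
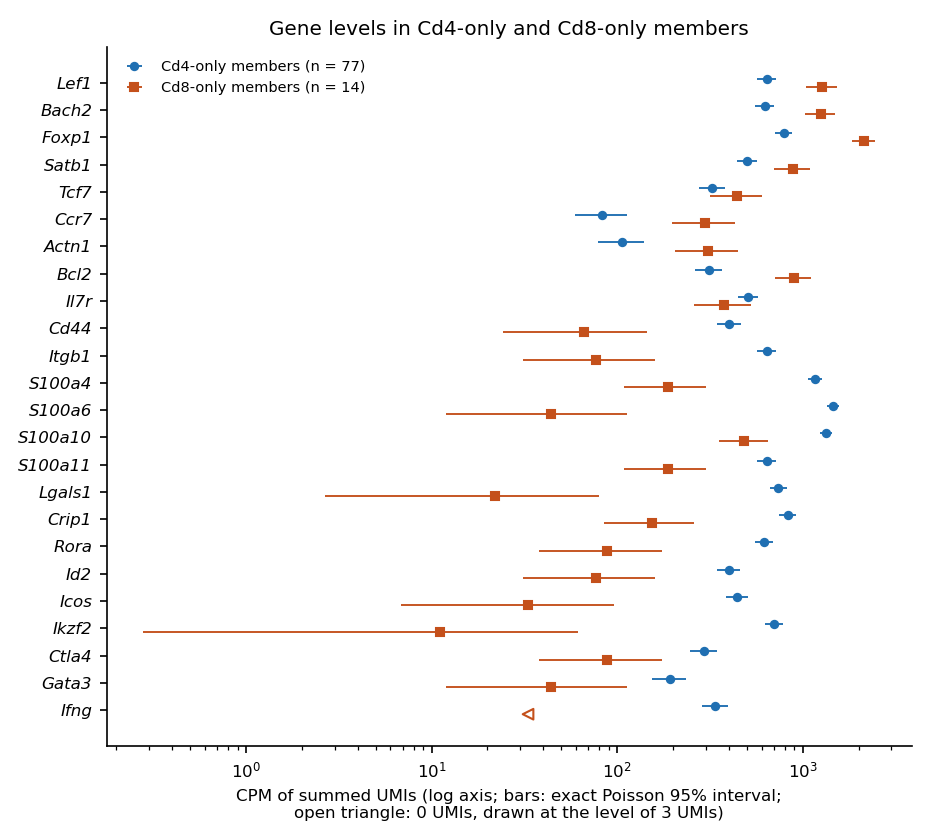
Level of 24 genes in the 77 Cd4-only (circles) and 14 Cd8-only members (squares), in CPM on a log axis with exact Poisson 95% intervals; the open triangle marks 0 UMIs at the level of 3 UMIs, 33.1 CPM. Foxp1 and Bcl2 lie to the right in Cd8-only members, and the genes from Cd44 to Ifng lie to the left.

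Few genes were higher in Cd8-only members. Of 12 measured naive genes 2 (Foxp1 and Actn1) passed 2-fold upward and 0 downward (3 and 0 without other lineages), and their median of 0.26 turned to -0.17 with the median of ratios. Foxp1, a factor of quiescent T cells, was at 2140 CPM in Cd8-only and 791 CPM in Cd4-only members (1.44, 1.18 to 1.69), and the survival gene Bcl2 at 893.5 and 312.6 CPM (1.52). Outside the lists, the phosphodiesterase gene Pde3b (1202 and 208 CPM, 2.53) and Vps37b (1511 and 495.5 CPM, 1.61) were the highest. Hbb-bt was the lowest, with 476 of its 512 UMIs in 1 Cd4-only member. Below 2-fold, Lef1 stood at 1269 and 640.1 CPM (0.99), and it was seen in 12 of 14 Cd8-only members. Of the 13 members with Cd8b1 and without other lineages, 6 held Dapl1, against 11 of 162 without Cd8b1.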

How the data were processed

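Libraries were made from 2 livers with 10x Chromium 3′ v3 chemistry and sequenced on an Illumina NovaSeq, as the labels' protocols state. Each file holds UMI counts by gene and barcode as deposited by the authors, not normalized and found here to hold only whole numbers. The file headers name Cell Ranger 7.1.0. In the submitters' processing notes fastp, Trimmomatic, Seurat, edgeR and mm10 appear too, without roles. The sources used here do not give the calling of cells or the strand setting. Of 32285 gene IDs, 32235 matched GENCODE M21, which gave coordinates. Counts were summed per group with Python 3.11.15 and numpy 2.4.6, and Poisson, binomial and conditional ratio intervals (95%) were taken from scipy 1.17.1. Ratios used genes with at least 50 UMIs in either group; a count of 0 was set to 3 UMIs. The ratio procedure was tested on simulated Poisson counts, the model that its intervals assume. That simulation does not cover UMIs concentrated in few cells. Doublets were not removed, and an alternative leaves out the 178 barcodes (3.77%) with the highest Scrublet scores (scanpy 1.11.5), 3 members among them; Scrublet's own threshold marked 79. Named genes are those of 36 lists (330 genes, all found) and the 10 highest and 10 lowest ratios among genes with at least 200 UMIs over both groups. A few genes of these lists entered the counts and the groups of members but are not reported here by name. Members and lists were chosen with earlier results of these data known. With 1 library per label no test between samples was possible.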

Additional observations from a re-analysis of the deposited data

How the results depend on the processing

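No paired analysis was possible because each label has 1 library. Under the alternatives tried, counts, shares, list medians and a chosen set of single genes were recomputed. No called value among these changed its direction. The naive median of Cd8-only members, not called, went from 0.26 to -0.17 with the median of ratios. Of 575 values of single genes, 19 left the counting interval of the reported value. The set held no neutrophil or haemoglobin genes, and some of these did reverse over the 175 members against T cells with Ccl5. There S100a8 went from a log2 ratio of 2.97 to -4.27 and Hbb-bs from 1.91 to -2.11. The member count ran from 133 (mitochondrial limit of 10%) to 197 (no limit). Lowering the gene filter to 10 UMIs raised the counts of called genes to 544 higher and 848 lower without against with Ccl5, and to 348 and 1196 for Cd8-only against Cd4-only members, where the naive median became 0.90. A filter of 200 UMIs left 33 and 23, and 4 and 36; fewer and more highly expressed genes are then tested. The Cd8-only counts also moved with a mitochondrial limit of 10% (30 higher), with the median of ratios (19 higher, 537 lower), with totals without mitochondrial and ribosomal protein genes (83 higher), and when a class needed 2 coreceptor UMIs (27 higher, 169 lower); the cause was not tested. Classes from 2 UMIs put 22.1% of members in Cd4-only, 72.1% in neither and 0 in both, which was also 0 with the limit of 10%. Thinned to 1000 UMIs, Cd4-only was 9.52%, neither 86.2%, both 0, Foxp3 1.06%, Trdc 3.17% and the gamma constant genes 7.94%, so depth limits these shares of cells. Leaving out the 15 members with other lineages was chosen after seeing the data.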
